A study of Caenorhabditis elegans with 8 samples.

Results

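DAF-16 peaks assigned to tRNA genes made up 109 of the 6859 peaks called in daf-2(-) worms and 87 of the 5396 peaks called in wild type (WT) worms. A gene was counted as a tRNA gene when its symbol ended in .t and a number, as in K08H2.t1, and every peak assigned to such a gene in either list was kept. The peaks fell on 98 tRNA genes in daf-2(-) and on 87 in WT, or 125 genes in all. Of these, 60 had a peak in both lists, 38 in daf-2(-) only and 27 in WT only. The peaks of all kinds were assigned to 5624 genes in daf-2(-) and 4643 in WT, and the same split over them is not given here. These counts therefore do not show whether tRNA genes differ from other genes in this respect. In the RefSeq table for the WBcel235 assembly, which matched all 125 symbols, 111 of the genes are annotated as tRNA genes and 14 as tRNA pseudogenes. The label therefore holds for most members, and the pseudogenes are described apart where they differ.

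The study mapped where endogenous DAF-16, the only FOXO factor that Caenorhabditis elegans has, sits on chromatin, by immunoprecipitation with a polyclonal antibody and sequencing (ChIP-seq). The chromatin came from whole animals of mixed stages, with all their tissues, kept at 20 °C. The daf-2(-) worms carried allele e1370 of daf-2, which reduces the function of the insulin/IGF-1 receptor, while the daf-16 gene was intact. WT worms were of the N2 strain. The null strains daf-16(-), allele mgDf50, and daf-16(-);daf-2(-) entered only through the peaks that the authors removed: daf-2(-) peaks that coincided with double-mutant peaks, and WT peaks that coincided with daf-16(-) peaks. Each of the 4 strains had 1 ChIP library from pooled chromatin and 1 input library, 8 libraries in all, so the spread between replicates is unknown and no p-value is given. All intervals are 95% intervals. Those of shares and of single pairs cover counting error, and those of medians cover the spread between peaks or pairs. None covers the spread between replicates, and peaks assigned to the same gene were counted separately.

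tRNA genes are short genes transcribed by RNA polymerase III. Their promoter lies inside the transcribed sequence, where the A box and the B box are bound by the factor TFIIIC, which places TFIIIB just upstream of the start. Most tRNAs are encoded by several near-identical gene copies, and in C. elegans many of these lie on the X chromosome. FOXO factors are known mainly for binding at genes read by RNA polymerase II. The gene models in the lists were 71 to 120 bp long in daf-2(-) and 70 to 122 bp in WT, with a median of 72 bp in both. A peak is thus many times longer than the gene it was assigned to. Which tRNA each gene encodes was not given in the tables used here.

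tRNA peaks lay close to their genes, and mostly just upstream. The centre of the peak was within 250 bp of the midpoint of the tRNA gene for 69 of 109 peaks in daf-2(-) (63.3%, interval 53.9 to 71.8) and for 65 of 87 in WT (74.7%, 64.7 to 82.7). Distance to a midpoint depends on gene length, so other assigned genes of 200 bp or less served for comparison, and their shares were 45.8% of 1676 peaks in daf-2(-) (43.4 to 48.2) and 46.4% of 1309 in WT (43.8 to 49.2). At 250 bp the intervals of tRNA genes and of other short genes do not overlap in either list. In daf-2(-) they do overlap within 100 bp (26.6 to 44.2 for tRNA genes, 22.9 to 27.1 for other short genes). They also overlap there, only just, within 500 bp (61.51 to 78.37 against 56.82 to 61.52). In WT they do not overlap at 100 or 500 bp. The authors' choice of the gene with the nearest start favours short distances for every gene in the comparison. At microRNA genes, another class of short genes, 11 of 38 daf-2(-) peaks (28.9%, 17.0 to 44.8) and 5 of 25 WT peaks (20.0%, 8.86 to 39.1) were this close.

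The whole tRNA gene lay under the peak in 75 of 109 cases in daf-2(-) (68.8%, 59.6 to 76.7) and in 70 of 87 in WT (80.5%, 70.9 to 87.4). For the other short genes the shares were 58.2% in daf-2(-) (55.9 to 60.6) and 63.9% in WT (61.3 to 66.5). The intervals overlap in daf-2(-) and do not in WT. Measured along the direction of transcription, the median summit position was -117.5 bp from the gene midpoint in daf-2(-) (interval -145 to -70.5) and -97.5 bp in WT (-119.5 to -38.5), where negative values are upstream. The summit, which is the point of highest tag pileup, fell upstream of the gene for 80 daf-2(-) peaks (73.4%, 64.4 to 80.8), inside it for 11 and downstream for 18. In WT it was upstream for 54 peaks (62.1%, 51.6 to 71.5), inside for 19 and downstream for 14. Over all other genes of any length the summit was upstream in 67.1% of daf-2(-) peaks and 66.8% of WT peaks. Both values lie inside the tRNA intervals, so an upstream summit is not particular to tRNA genes. Summits of the other short genes were upstream in 50.9% of daf-2(-) peaks (48.5 to 53.3) and 50.3% of WT peaks (47.6 to 53.0). Against these short genes alone, the upstream side was taken more often at tRNA genes in daf-2(-), by intervals that do not overlap, whereas in WT the intervals overlap. The histogram of tRNA summit positions shows the upstream side, with 32 daf-2(-) and 22 WT summits in the 100 bp upstream of the midpoint and 3 daf-2(-) and 11 WT summits in the 100 bp downstream of it.

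**Figure D1:**
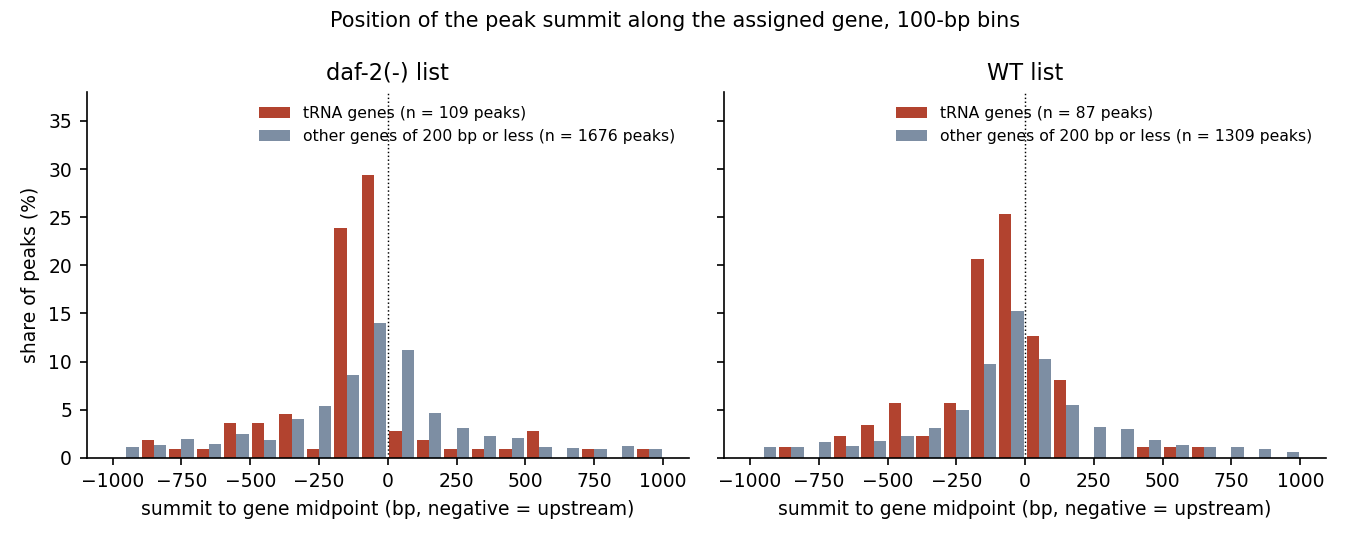
Share of peaks (%) by the distance from the peak summit to the midpoint of the assigned gene, in bins of 100 bp from 1000 bp upstream (negative) to 1000 bp downstream, for tRNA genes and for other genes of 200 bp or less in each list. The bin from -100 to 0 bp held 29.4% of tRNA peaks in daf-2(-) and 25.3% in WT, and 20 daf-2(-) and 8 WT tRNA summits lay beyond the plotted range.

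The pseudogenes stood apart in position. Of the peaks assigned to genes annotated as tRNA genes, 72.0% in daf-2(-) (67 of 93, interval 62.2 to 80.1) and 79.5% in WT (62 of 78, 69.2 to 87) were centred within 250 bp. For tRNA pseudogenes the counts were 2 of 16 in daf-2(-) (12.5%, 3.5 to 36.0) and 3 of 9 in WT (33.3%, 12.1 to 64.6). The median distance of the peak centre from the midpoint, regardless of side, was 656.8 bp for pseudogenes and 140.5 bp for annotated tRNA genes in daf-2(-), and 304 bp and 99.2 bp in WT. Most pseudogene peaks were thus not centred on the pseudogene, which was the gene with the nearest start. Over all members, 18 daf-2(-) and 7 WT peaks were centred more than 1000 bp away. The farthest were M01E10.t1 in daf-2(-), 4839 bp upstream, and T22F7.t1 in WT, 4243.5 bp upstream.

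In strength the tRNA peaks did not stand apart from the rest of either list. Their median summit height was 52 tags in daf-2(-) (interval 47 to 64, range 25 to 199), against 56 for all other daf-2(-) peaks. In WT it was 89 tags (77 to 101, range 34 to 252), against 90 for all other WT peaks. The authors' fold enrichment, the summit over the local background of the input, had medians of 7.00 (6.34 to 8.20) against 7.24 in daf-2(-) and 10.6 (8.95 to 11.6) against 10.5 in WT. In all 4 of these comparisons the value of the other peaks lay inside the interval of the tRNA peaks.

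At the top of the lists, the tRNA share lay below that of the list by its interval only for the tallest 25% in WT. The tallest 10% of the list, at or above 131.2 tags in daf-2(-) and 185 in WT, held 6 of 109 daf-2(-) tRNA peaks (5.50%, interval 2.55 to 11.5) and 5 of 87 WT tRNA peaks (5.75%, 2.48 to 12.8), both intervals including 10%. The tallest 25% held 23 daf-2(-) tRNA peaks (21.1%, 14.5 to 29.7) and 13 WT tRNA peaks (14.9%, 8.95 to 23.9), and the interval of WT lay below 25%. The tallest 1% held 0 tRNA peaks in both lists, which allows a share of up to 3.40% in daf-2(-) and 4.23% in WT by the Wilson interval.

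Against all other peaks of the same list, the tRNA peaks were slightly narrower in WT. Median length was 811 bp in daf-2(-) (interval 784 to 844), against 836 bp for other peaks, which lies inside the interval. In WT it was 895 bp (876 to 941) against 962 bp, which lies outside it. For other genes of 200 bp or less the median was 853 bp in daf-2(-) (838 to 868) and 979 bp in WT (965 to 994). Both medians lie outside the tRNA intervals, though in daf-2(-) the 2 intervals overlap. For microRNA genes it was 898 bp in daf-2(-) (813 to 1146) and 977 bp in WT (863 to 1112), with intervals that overlap those of tRNA peaks. Peaks longer than 1500 bp were 4 of 109 tRNA peaks in daf-2(-) (3.67%, against 8.30% of other peaks) and 5 of 87 in WT (5.75%, against 16.5%). The tag count per peak had a median of 100 in daf-2(-) (87 to 107) against 106, and of 162 in WT (142 to 175) against 184, which is outside the WT interval. Together the tRNA peaks held 13175 of the 1051563 tags inside daf-2(-) peaks (1.25%) and 16604 of the 1315194 inside WT peaks (1.26%), although they were 1.59% of daf-2(-) peaks and 1.61% of WT peaks. Total reads per library were not given in the lists.

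**Figure D2:**
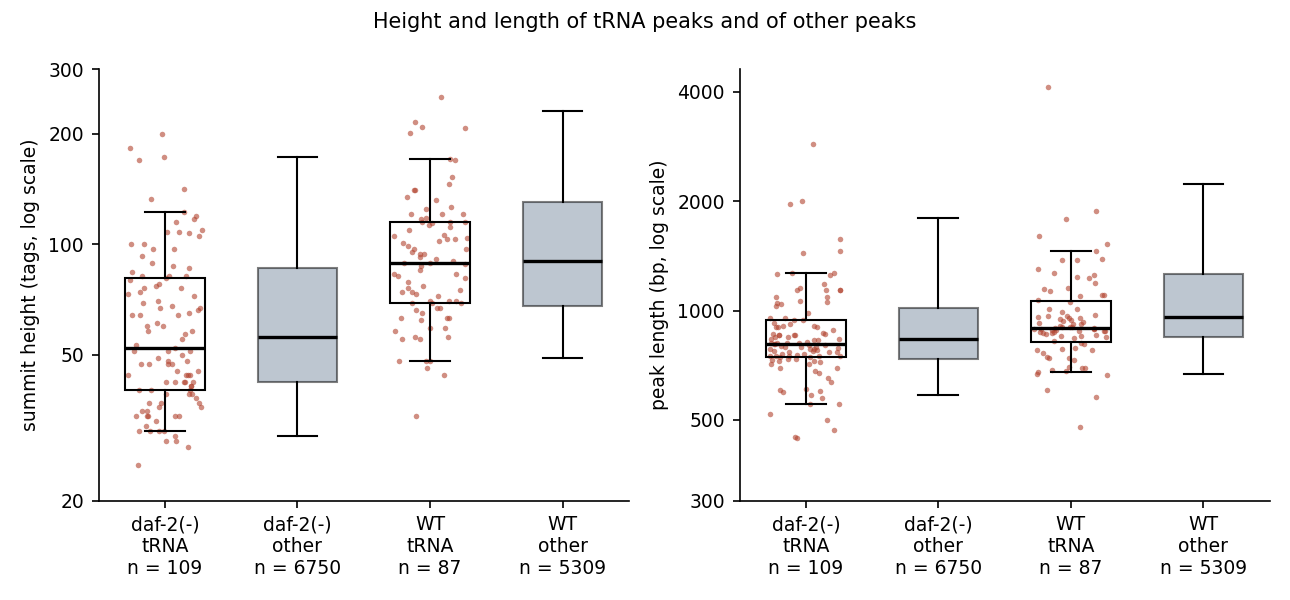
Summit height (tags, log scale) and peak length (bp, log scale) of tRNA peaks (points, each 1 peak) and of all other peaks in each list, with boxes from the lower to the upper quartile, a line at the median and whiskers from the 5th to the 95th percentile. The height medians of tRNA and other peaks are 52 and 56 tags in daf-2(-) and 89 and 90 tags in WT.

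The tallest tRNA peak of the daf-2(-) list belonged to C06G4.t1 on chromosome III (gene 7978471 to 7978543, minus strand, WS230). It reached 199 tags with 24.7-fold enrichment, rank 205 of the list by height, with its summit 322 bp upstream of the midpoint. The WT peak that it overlapped, with a summit 48 bp away and a height of 217 tags, was assigned to the neighbouring noncoding RNA gene C06G4.7. The same region can therefore count as a tRNA peak in daf-2(-) and not in WT.

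C42D8.t1 on X (5085622 to 5085695, minus strand) had a summit of 183 tags in daf-2(-) and 207 tags in WT. Both summits lay well upstream, 747.5 bp in daf-2(-) and 699.5 bp in WT, and neither peak reached the gene. A second daf-2(-) peak of 68 tags lay over the gene itself with its summit 97.5 bp upstream, and the WT peak it overlapped, of 108 tags, was assigned to the noncoding RNA gene C42D8.14.

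C16B8.t2 on X (3970096 to 3970167, plus strand) had 173 tags in daf-2(-) and 201 tags in WT, with both summits 1 bp apart and about 119 bp upstream of the midpoint (118.5 bp in daf-2(-) and 119.5 bp in WT). ZK563.t1 on X (3371422 to 3371493, minus strand, inside the protein-coding gene ZK563.2) reached 169 tags in daf-2(-) and 208 tags in WT. Its summits were 3 bp apart and fell inside the tRNA gene in both strains. These pairs show summits that stayed in place over a few bp while WT was the taller.

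F13G11.t1 on chromosome IV had the widest peak of both lists' tRNA peaks, 2872 bp with 712 tags in daf-2(-) and 4128 bp with 1570 tags in WT. Its summit height was 141 tags in daf-2(-) and 215 tags in WT, and the summits lay 1633 bp and 1603 bp upstream of the gene midpoint in daf-2(-) and in WT. The gene is thus covered by a broad region whose maximum is elsewhere.

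The remaining tallest daf-2(-) peaks were at F55G7.t2 (133 tags), K02E7.t1 (122 tags), F52C9.t1 (119 tags), F25F6.t2 (117 tags) and R04A9.t1 (115 tags). Their WT partners had 165 tags for F55G7.t2, 132 tags for K02E7.t1, 152 tags for F52C9.t1, 169 tags for F25F6.t2 and 140 tags for R04A9.t1, so WT was the taller at each. The WT peak was also the taller in 93.3% of the overlapping pairs without a tRNA gene. The WT partner of F55G7.t2 was assigned to the noncoding RNA gene F55G7.6. The summits of F55G7.t2 and F25F6.t2 lay inside the gene in daf-2(-), those of F52C9.t1 and R04A9.t1 were 112.5 and 186.5 bp upstream, and that of the pseudogene K02E7.t1 was 1768 bp downstream. F25F6.t2 lies inside the protein-coding gene mltn-13 and F52C9.t1 inside F52C9.5, by gene order in WBcel235.

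C28G1.t1 on X (8836113 to 8836184, plus strand, inside the protein-coding gene C28G1.2) had the tallest tRNA peak of the WT list, 252 tags with 31.4-fold enrichment, and the daf-2(-) peak it overlapped had 207 tags and was assigned to the noncoding RNA gene C28G1.8. F13G11.t1, ZK563.t1, C42D8.t1 and C16B8.t2 followed in WT with the heights given above. The other tallest WT peaks were at Y97E10C.t1 (171 tags), F25F6.t2 (169 tags), F52C9.t1 (152 tags), F11H8.t1 (146 tags) and, level at 140 tags, F54F7.t1 and R04A9.t1. At F54F7.t1 on X the daf-2(-) peak it overlapped had 62 tags and was assigned to the noncoding RNA gene F54F7.13. At F11H8.t1 on chromosome III the partner peak in daf-2(-) had 108 tags, with summits 69 bp apart. Of the 10 tallest daf-2(-) peaks all had a partner in WT, and the 11 named for WT all had one in daf-2(-).

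Chromosome X held 48 of the 109 daf-2(-) tRNA peaks (44.0%, interval 35.1 to 53.4) and 44 of the 87 WT tRNA peaks (50.6%, 40.3 to 60.8). Of all other peaks, 25.4% lay on X in daf-2(-) and 26.1% in WT. At microRNA genes the counts were 14 of 38 in daf-2(-) (36.8%, 23.4 to 52.7) and 13 of 25 in WT (52.0%, 33.5 to 70.0). These intervals overlap those of the tRNA peaks, so a high share on X is not particular to tRNA peaks. The tRNA genes themselves are concentrated there, with 297 of the 807 annotated symbols of this form (36.8%) on X, and 268 of the 598 that are not pseudogenes (44.8%). Among peaks at genes annotated as tRNA genes, 48.4% in daf-2(-) (38.5 to 58.4) and 55.1% in WT (44.1 to 65.7) were on X. The annotated share of 44.8% lay inside both of these intervals. With the pseudogenes kept, the annotated share of 36.8% lay inside the interval of daf-2(-) peaks and below that of WT peaks. Counted by gene in place of peak, 46.9% of the daf-2(-) tRNA genes were on X (37.4 to 56.7). The annotated share lay just below that interval too. In WT the share by gene was also 50.6% (40.3 to 60.8).

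Across chromosomes, the share of annotated tRNA genes with a peak in either list was 18.7% on I (14 of 75), 22.8% on II (18 of 79), 17.7% on III (17 of 96), 7.69% on IV (7 of 91), 7.10% on V (12 of 169) and 19.2% on X (57 of 297). The intervals of IV (3.78 to 15.0) and V (4.11 to 12.0) lay below that of X (15.1 to 24.1). Chromosome V carries many of the pseudogenes, and without them the share there was 11.5%, against 10.3% on IV, 20.1% on X and 20.0% to 23.8% on I to III. IV and V were thus the 2 lowest with and without the pseudogenes, but without them their intervals (5.08 to 19.8 on IV and 6.19 to 20.5 on V) overlapped that of X (15.8 to 25.4).

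**Figure D3:**
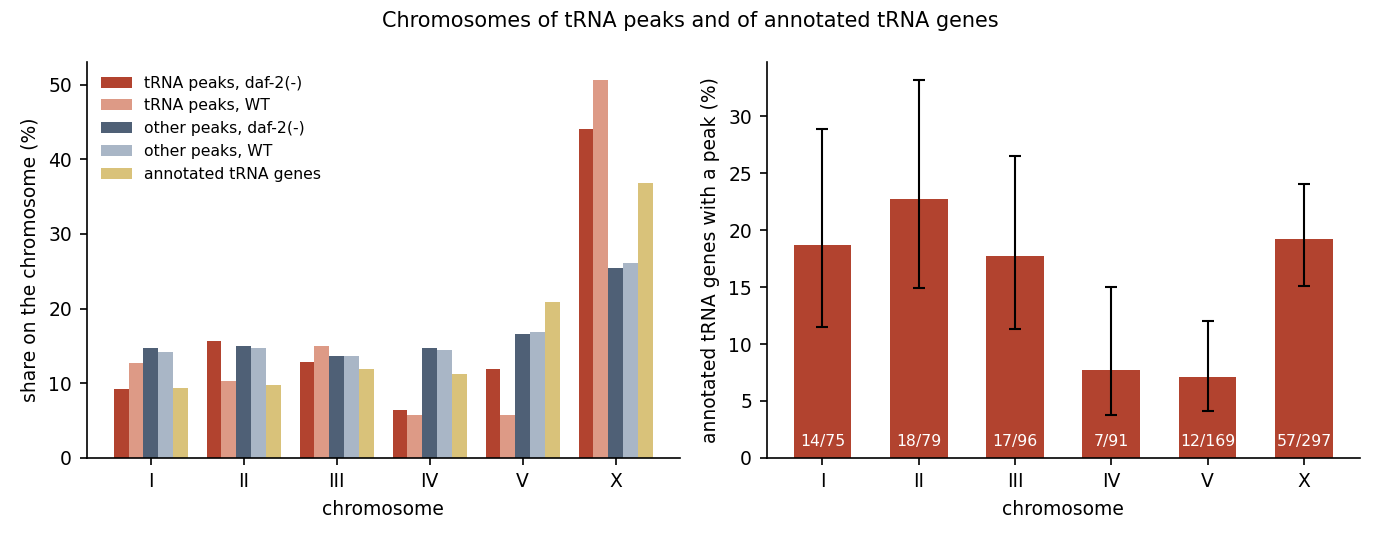
Left, share (%) of tRNA peaks, of other peaks and of annotated tRNA genes (WBcel235) on each chromosome. Right, share (%) of annotated tRNA genes with a peak in either list, with counts at the foot of the bars and Wilson 95% intervals, from 7.10% on V to 22.8% on II.

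Most annotated tRNA genes had no peak. Of the 807 symbols, 98 had one in daf-2(-) (12.1%, interval 10.1 to 14.6) and 87 in WT (10.8%, 8.82 to 13.1). For comparison, the shares among all annotated genes of other kinds were 17.7% in daf-2(-) and 14.7% in WT for protein-coding genes, 24.6% and 25.4% for snoRNA genes, 13.1% and 9.23% for microRNA genes, and 1.52% and 1.17% for piRNA genes, in daf-2(-) and in WT. The tRNA share thus lay between those of piRNA and snoRNA genes in both lists. Only unique alignments were kept by the authors, and tRNA gene copies can be near identical. The part of this in the share of genes without a peak was not tested.

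Gene order in WBcel235 gives further features of the genes with a peak. Of the 125, 51 lay inside a protein-coding gene (40.8%, 32.6 to 49.6), against 348 of the 682 without a peak (51.0%, 47.3 to 54.8). On autosomes the shares were 42.6% with a peak (31.6 to 54.5) against 61.1% without (56.5 to 65.5), and on X 38.6% (27.1 to 51.6) against 32.5% (26.9 to 38.7). The intervals overlap on X and do not on autosomes, and whether X and autosomes differ in this was not tested. Another tRNA gene was the next gene in order for 24 of the 125 with a peak (19.2%, 13.3 to 27) and for 257 of the 682 without (37.7%, 34.1 to 41.4). A peak was assigned to a single nearest start, so 1 peak beside adjacent tRNA genes marks only 1 of them, and the part of this in the difference was not tested.

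A partner in the other list, meaning an overlap of at least 1 bp with any of its peaks, was found for 74 of the 109 tRNA peaks of daf-2(-) (67.9%, interval 58.6 to 75.9), where 70.6% of all daf-2(-) peaks had one. In WT it was found for 70 of the 87 tRNA peaks (80.5%, 70.9 to 87.4), where 87.4% of all WT peaks had one. Peaks of all other genes had a partner in 70.7% of cases in daf-2(-), inside the interval of the tRNA peaks, and in 87.5% in WT, just above it. The partner was assigned to the same tRNA gene for 58 of the 74 shared peaks of daf-2(-) and for 59 of the 70 of WT. It was assigned to a noncoding RNA gene of another class in 8 daf-2(-) and 5 WT cases, and to a protein-coding gene in 5 daf-2(-) and 3 WT cases.

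Because assignment to genes is made per list, a tRNA gene named in 1 list only need not lack a peak in the other strain. Of the 38 genes found in daf-2(-) only, 13 had a peak with a WT partner, and 12 were touched by a WT peak. Of the 27 found in WT only, 10 had a peak with a daf-2(-) partner and 9 were touched by a daf-2(-) peak.

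Sharing followed strength within each list. Each list was split into 4 parts of equal size by fold enrichment. In the lowest part of the daf-2(-) list (below 5.35), 11 of 26 tRNA peaks had a partner (42.3%), against 45.7% of the other peaks, and in the highest part (11.1 or more) 23 of 24 (95.8%), against 91.9%. In WT the lowest part (below 8.01) had a partner for 10 of 18 tRNA peaks (55.6%), against 66.7%, and the highest part (15.1 or more) for 13 of 13 (100%), against 99.9%. The value of the other peaks lay inside the tRNA interval in every such part of both lists except the third of WT. There, 28 of 31 tRNA peaks had a partner (90.3%, 75.1 to 96.7) against 97.1%.

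**Figure D4:**
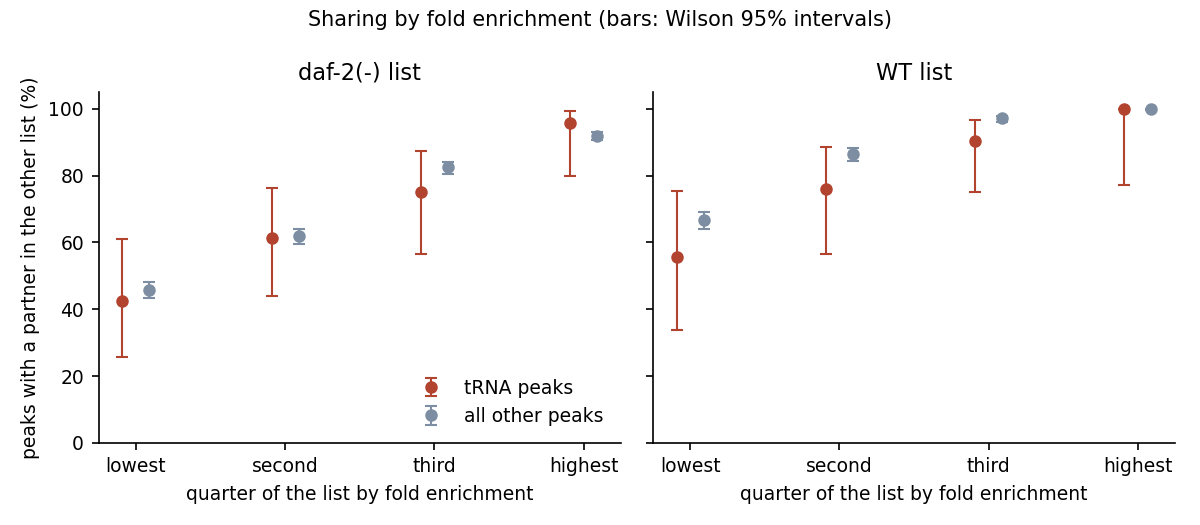
Share (%) of tRNA peaks and of all other peaks that overlapped a peak of the other list, by fold enrichment in 4 equal parts of each list, with Wilson 95% intervals. In daf-2(-) the tRNA share is 42.3% in the lowest part and 95.8% in the highest, and in WT it is 55.6% and 100%.

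tRNA peaks without a partner were lower than shared ones in both lists. Their median height was 42 tags in daf-2(-) (35 peaks, interval 35 to 51), against 65.5 for the 74 shared ones (51 to 77), and in WT 67 tags (17 peaks, 48 to 81), against 94.5 for the 70 shared ones (85 to 109). Peaks of other genes gave the same medians without a partner in daf-2(-), 42 tags, against 66 when shared, and 61 tags against 97 in WT. Among daf-2(-) tRNA peaks centred within 250 bp of the gene, 52 of 69 had a partner (75.4%, 64.0 to 84.0), and among the others 22 of 40 (55.0%, 39.8 to 69.3), with overlapping intervals. In WT the shares were 80.0% (52 of 65) and 81.8% (18 of 22).

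The tallest daf-2(-) tRNA peaks without a WT partner were at F42A10.t1 (100 tags, 12.1-fold), F14B6.t2 (80 tags, 11.0-fold) and Y22D7AL.t3 (74 tags, 10.2-fold). The peak at F42A10.t1 on chromosome III was 2003 bp long, with the gene (6158778 to 6158859, plus strand) near its centre and the summit 524.5 bp downstream. The tallest WT tRNA peaks without a daf-2(-) partner were at F43E12.t1 (106 tags, 13.6-fold), K08H2.t1 (104 tags, 13.3-fold) and the pseudogene F19H8.t1 (97 tags, 10.3-fold). At a fold enrichment of 10 or more, 4 daf-2(-) and 4 WT tRNA peaks had no partner, among 32 daf-2(-) and 48 WT tRNA peaks of that strength. The share of other peaks without a partner at this limit is not given here. These counts therefore do not show whether tRNA peaks differ from other peaks of that strength. The authors left WT peaks that coincided with daf-16(-) peaks out of the WT list, and the part of this in the daf-2(-) peaks without a WT partner was not tested.

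K08H2.t1 shows the usual geometry. Its gene lies on X (13261203 to 13261274, plus strand) and lies in no protein-coding gene, and the WT peak spans 13260727 to 13261615 with 139 tags. The summit was 86.5 bp upstream of the gene midpoint and the peak centre 67.5 bp upstream. No daf-2(-) peak overlapped it.

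More than 1 peak was assigned to the same tRNA gene for 8 genes in daf-2(-), with 19 peaks between them, and for 0 genes in WT. Over all genes, 6859 peaks fell on 5624 genes in daf-2(-) and 5396 peaks on 4643 genes in WT. The share of all genes with more than 1 peak is not given here. These counts therefore do not show whether tRNA genes differ from other genes in this respect. Y22D7AL.t3, K11H12.t1 and C44C11.t2 had 3 daf-2(-) peaks each, and C42D8.t1, F52H2.t2, T03E6.t1, Y38E10A.t3 and Y43F8C.t8 had 2 each. At Y22D7AL.t3 the peak near the gene had 39 tags in daf-2(-), and its WT partner had 66 tags. The other daf-2(-) peaks, of 67 and 74 tags, lay 1715.5 and 2679.5 bp upstream and had no WT partner. At K11H12.t1 the daf-2(-) peak near the gene had 47 tags and its WT partner 109 tags, and those of 35 and 40 tags, 1739.5 and 3584.5 bp downstream, had none. At F52H2.t2 the peak over the gene had 76 tags in daf-2(-) and its partner 103 tags in WT, while the second daf-2(-) peak, of 52 tags, had none. At Y22D7AL.t3, K11H12.t1 and F52H2.t2 the additional daf-2(-) peaks thus had no WT partner, where 70.6% of all daf-2(-) peaks had one.

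The daf-2(-) peaks of C44C11.t2, a pseudogene, had 60, 42 and 47 tags, and only the last, 1352.5 bp upstream, had a WT partner, of 63 tags. Y38E10A.t3, another pseudogene, had daf-2(-) peaks of 31 and 36 tags, both downstream and both without a partner. The third of these pseudogenes, Y43F8C.t8, had daf-2(-) peaks of 42 and 60 tags, the first with a WT partner of 77 tags. At T03E6.t1 the daf-2(-) peak by the gene had 51 tags against 89 in WT, and its second peak, of 41 tags, lay within a long WT peak assigned to the cathepsin gene cpl-1, with summits 1221 bp apart.

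Where both lists had a peak, heights were compared in pairs. Pairs were formed from each WT peak with a partner and its overlapping daf-2(-) peak, or the one with the closest summit if there were several, which gave 83 pairs with a tRNA gene on at least 1 side among 4717 pairs in all. Both peaks were assigned to the same tRNA gene in 59, to tRNA genes in 62, only the daf-2(-) peak to one in 13 and only the WT peak in 8. The lists were made separately and the total reads of each library are not given in them, so a ratio is read against that of all pairs.

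The WT peak was the taller in 79 of the 83 tRNA pairs (95.2%, 88.3 to 98.1) and the daf-2(-) peak in 4. Among the other pairs the WT peak was the taller in 4325 of 4634 (93.3%), which lies inside that interval. The median log2 ratio of daf-2(-) over WT height was -0.58 (interval -0.67 to -0.49), against -0.53 for the 4634 other pairs, and relative to the median of all pairs it was -0.045 (-0.14 to 0.045). The WT height was 1.5-fold or more above that of daf-2(-) in 41 tRNA pairs (49.4%, 38.9 to 59.9), where 43.9% of all pairs passed this fold. The daf-2(-) height was 1.5-fold or more above that of WT in 1 tRNA pair (1.2%, 0.213 to 6.51), where 0.572% of all pairs passed it. Both intervals of the tRNA pairs include the share of all pairs, and daf-2(-) heights were lower over the whole set of pairs. A summit height from worms of mixed tissues does not separate the number of cells with a bound site from the binding per cell.

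**Figure D5:**
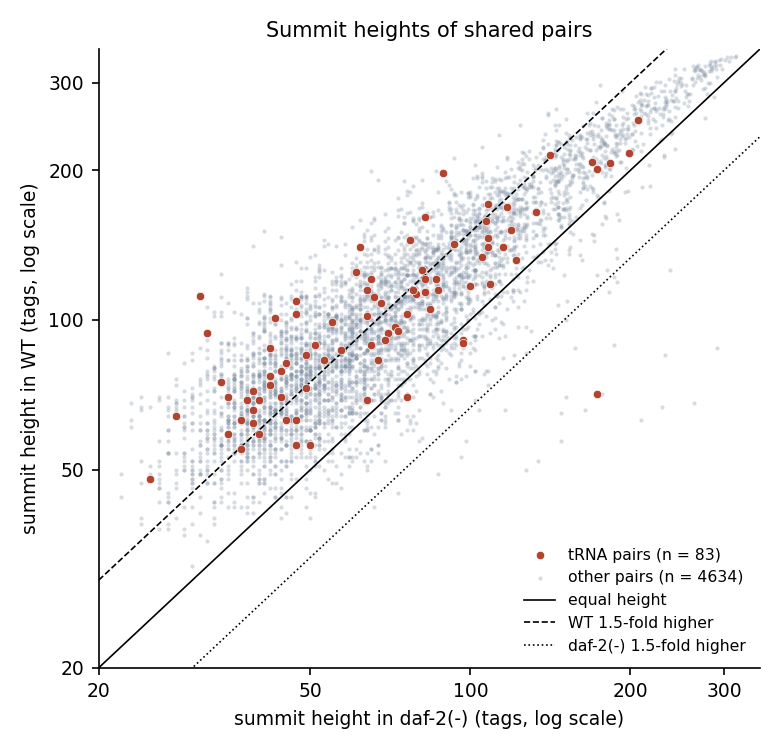
Summit height in daf-2(-) (tags, log scale) against summit height in WT (tags, log scale) for the 83 pairs with a tRNA gene and the 4634 other shared pairs, with lines of equal height and of a 1.5-fold difference either way. The tRNA pairs lie among the others, 79 of them (95.2%) on the WT side of the line of equal height, as do 93.3% of the other pairs.

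The tRNA pairs were also split by place. On autosomes the median log2 ratio was -0.67 for 42 tRNA pairs (interval -0.79 to -0.56), against -0.52 for the other autosomal pairs, which lies outside the interval. On X it was -0.49 for 41 tRNA pairs (-0.67 to -0.31), against -0.55. For the 65 pairs with a peak centred on the tRNA gene in either list it was -0.64 (-0.75 to -0.53), and for the other 18 it was -0.39 (-0.86 to -0.11). The intervals of both contrasts overlap.

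The 5 pairs with the highest ratio began with C16B8.t2, where a daf-2(-) peak of 173 tags was set against a WT peak of 71 tags assigned to the protein-coding gene C16B8.3 (log2 1.28, counting interval 0.88 to 1.70). This daf-2(-) peak touched 2 WT peaks, and against the WT peak at the tRNA gene itself, of 201 tags, it was the lower. It is also the only tRNA pair in which daf-2(-) exceeded WT by 1.5-fold. The next were H11E01.t1 (76 tags in daf-2(-) and 70 in WT, log2 0.12), F39B1.t1 (97 in daf-2(-) and 90 in WT, log2 0.11), Y53G8B.t5 (97 in daf-2(-) and 91 in WT, log2 0.09) and F22B7.t1 (64 in daf-2(-) and 69 in WT, log2 -0.11). Their counting intervals all include 0. Read against the median of all pairs, -0.53, those of H11E01.t1, F39B1.t1 and Y53G8B.t5 lay above it and that of F22B7.t1 included it. These pairs were picked by their ratio. H11E01.t1 and Y53G8B.t5 are pseudogenes, and the peaks of F39B1.t1 and F22B7.t1 had their centres 2242.5 and 2240 bp upstream in daf-2(-), so none of these 4 peaks was centred within 250 bp of the gene.

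The 5 pairs with the lowest ratio were W02G9.t1, R04E5.t2, Y54G2A.t3, K11H12.t1 and F52H2.t1. At W02G9.t1 on chromosome V, which lies inside the protein-coding gene ndx-2, the daf-2(-) peak had 31 tags and its WT partner 112 tags (log2 -1.85, counting interval -2.48 to -1.27). That partner was assigned to the noncoding RNA gene W02G9.9 and had its summit 26 bp away. At R04E5.t2 on X the heights were 32 tags in daf-2(-) and 94 tags in WT (log2 -1.55, -2.18 to -0.96). The ratio was -1.23 for Y54G2A.t3 (43 tags in daf-2(-) and 101 in WT), -1.21 for K11H12.t1 (47 in daf-2(-) and 109 in WT) and -1.19 for F52H2.t1 (28 in daf-2(-) and 64 in WT). At Y54G2A.t3 the daf-2(-) peak, and at F52H2.t1 the WT peak, was assigned to a neighbouring noncoding RNA gene. All 5 counting intervals lay below 0, as did those of 52 of the 83 tRNA pairs (62.7%) and in 59.5% of the other pairs. The 5 intervals also lay below the median of all pairs, -0.53, that of F52H2.t1 only just. These pairs too were picked by their ratio.

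Summits of paired tRNA peaks were 44 bp apart at the median (interval 28 to 49), against 37 bp for other pairs, and within 100 bp in 73 of 83 (88.0%, 79.2 to 93.3), against 86.7%. The 5 largest distances were at C16B8.t2 (1291 bp), Y97E10C.t1 (1074 bp), R04D3.t5 (710 bp), T23H4.t1 (517 bp) and K02A4.t1 (159 bp). At Y97E10C.t1 on chromosome V, a daf-2(-) peak of 1964 bp and 108 tags covered the tRNA gene and the site of the neighbouring protein-coding gene Y97E10C.1, where WT had separate peaks of 171 tags at the tRNA gene and 140 tags at Y97E10C.1. Its daf-2(-) summit lay 22 bp from the WT summit of the neighbour. At R04D3.t5 the WT peak at the tRNA gene (95 tags) was paired with a daf-2(-) peak of 73 tags assigned to the cytochrome P450 gene cyp-14A4. At T23H4.t1 on chromosome I a single broad peak in each strain, of 1088 bp in daf-2(-) and 1094 bp in WT, had its summit 357.5 bp upstream of the gene midpoint in daf-2(-) and 159.5 bp downstream in WT. At K02A4.t1 the peaks had 53 tags over 811 bp in daf-2(-) and 83 tags over 945 bp in WT. Wide peaks could also have close summits, as at F13G11.t1, where they were 30 bp apart.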

How the data were processed

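DAF-16 ChIP and input libraries of daf-2(-), WT and both DAF-16-null strains were sequenced once each. The authors aligned reads with Bowtie 0.12.7 to WS230, keeping unique alignments, called peaks with MACS 1.4.2 for each ChIP library against its input, and assigned each peak to the nearest transcription start. The deposited lists of daf-2(-) and WT give for each peak the tag count, the summit height (a pileup signal in tags), the fold enrichment (a ratio over the local background) and the false discovery rate in percent, as the authors made them. The highest deposited false discovery rate of a tRNA peak was 0.15 percent in daf-2(-) and 3.70 percent in WT. The p-value score of daf-2(-) was not used, nor was 1 column of binned tag density whose name matches no sample. The lists were assigned to strains by their deposited names.

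Peaks were shared when intervals overlapped by at least 1 bp. Shares have Wilson 95% intervals, medians exact order-statistic intervals, and paired heights exact binomial counting intervals. Coordinates are those of the lists; WBcel235 gave only names, biotypes and gene order. Members, lists and comparisons were chosen with earlier results of these data known. Genes named are K08H2.t1, the 10 tallest tRNA peaks of each list, the 5 highest and 5 lowest pair ratios, the 3 tallest unshared peaks of each list, genes with more than 1 peak and the 5 largest summit distances; the farthest peaks of each list were named after their values were seen. A planned motif search was not run, as no sequence was used here. Overlap and pairing were tested on simulated data. Values were computed in Python 3.11.15 with scipy 1.17.1, pandas 2.3.3 and numpy 2.4.6, and drawn with matplotlib 3.10.9.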

Additional observations from a re-analysis of the deposited data

How the results depend on the processing

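Of 55 alternative values for the 5 kinds of result, 44 fell within the 95% interval of the main value and 11 outside it. The median pair ratio was negative under every alternative run for it, while single pairs could differ in sign between height, tags and fold enrichment, and the interval relative to all pairs (-0.14 to 0.045) includes 0. With only peaks of 10-fold enrichment or more in the list counted, the share of tRNA peaks with a partner was 87.5% in daf-2(-) and 91.7% in WT. With the partner required to be a tRNA peak it was 57.8% in daf-2(-). In WT it was 70.1% with summits within 100 bp and 69.0% by gene in place of peak. No share of other peaks or genes is given under these alternatives, so these tRNA shares are not compared with them. The share of peaks centred on the gene was 34.9% in daf-2(-) and 46.0% in WT within 100 bp, 85.1% in WT within 500 bp, and 72.0% in daf-2(-) with tRNA pseudogenes left out. The median log2 height ratio of -0.58 was -0.43 by fold enrichment and -0.045 relative to all pairs. The shares on chromosome X and the ratios of tRNA to other median heights moved by less than their intervals under all alternatives run for them. Leaving out pseudogenes, centred peaks only, other short genes for comparison and pairing from the daf-2(-) side were chosen after seeing the data. The motif result and its shorter core were not run. No paired analysis was possible because there was 1 ChIP library per strain, and for the same reason no replicate could be left out. Depth limits the tRNA values through the number of peaks, 109 in daf-2(-) and 87 in WT.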

Other observations

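Of the 60 tRNA genes with a peak in both lists, 27 lay inside a protein-coding gene in WBcel235, as did 12 of the 38 with a peak in daf-2(-) only and 12 of the 27 with one in WT only. By strand, 54 tRNA genes of the daf-2(-) list were on the plus strand and 44 on the minus strand, and in WT 48 and 39.

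By chromosome, the lowest median height of tRNA peaks in daf-2(-) was 41 tags on IV (7 peaks) and the highest 70.5 tags on III (14 peaks), and in WT the lowest was 73 tags on III (13 peaks) and the highest 109 tags on IV (5 peaks). In WT the median on I, 74 tags, was close to that on III. With few peaks on each chromosome and no interval for these medians, no order of chromosomes is read from them.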
